A study of Mus musculus with 18 samples.

Results

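Astrocytes of the primary motor cortex (M1) were compared between mice after 3 days of training (novice, 6 libraries) and untrained mice (naive, 6 libraries). FPKM are fragments per kilobase of a transcript, on a scale set for each library. The rule took every gene that reached 5 FPKM in at least 6 of these 12 libraries. The rule selected 9749 of the 23924 genes read, and 4675 of these were at 5 FPKM or more in all 12 libraries. It did not use the difference between the groups, and 0 members reached the level in all 6 libraries of one group and in 0 of the other. At its edge, the 758 members that met it in exactly 6 libraries had a median level of 5.01 FPKM, and the 863 genes that met it in 5 had 4.36 FPKM and were left out.

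All mice were wild-type C57BL/6, and the series also holds 6 expert libraries from fully trained mice, which enter no comparison here. Novice mice had restricted access to water and worked for drops of it by pushing a lever on cue. The comparison addresses how the first days of motor practice bear on gene expression in M1 astrocytes. Naive mice were 12 to 21 weeks old and novice mice 11 to 13 weeks, with 2 libraries labelled female and 4 labelled male in each group. The labels do not say whether naive mice were also kept on restricted water, how the astrocytes were isolated, or whether each library came from 1 animal. A p-value here therefore reflects the variation among libraries, which may be technical.

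Astrocytes are the glial cells that enwrap synapses and blood vessels. They clear glutamate, GABA and potassium released by active neurons, store glycogen and pass lactate to neurons, and make cholesterol that neurons use. They also secrete factors that promote the formation of synapses and remove synaptic material by phagocytosis.

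The libraries were rich in astrocyte transcripts. All 30 astrocyte identity genes examined were members, and their summed level ran from 2819 to 10420 FPKM in naive (median 6597) and from 2825 to 6913 FPKM in novice (median 3246). Markers of other cell types had values too, and 0 of the 93 such markers examined were listed at 0 in 6 or more libraries. A value above 0 does not by itself show that a cell type was present. Of the genes from families mostly silent in brain, described below, only 15.8% to 51.8% were at 0 in a library. Among ependymal and blood cell markers, 6 of 8 and 6 of 7 fell short of the rule for members. Neuronal markers summed to 206 to 1318 FPKM in naive and 255 to 1723 FPKM in novice, and microglial markers to 80.7 to 104 FPKM and 80.7 to 133 FPKM.

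Libraries differed within both groups in a way the training labels do not give. A set of 1586 genes from 7 families that brain cells mostly do not express (olfactory, vomeronasal and taste receptors, trace amine receptors, hair keratin-associated proteins and beta-defensins) had a mean of 1.66 to 2.80 FPKM in 6 libraries and of 5.05 to 6.70 FPKM in the other 6. The lower class held naive 1 to 4 and novice 1 and 2, and the higher class held naive 5 and 6 and novice 3 to 6. The mean was 3.68 ± 2.36 FPKM in naive and 4.64 ± 1.63 FPKM in novice (SD, n = 6 each), a difference within the spread between libraries (exact permutation test over 924 splits, two-sided, p = 0.455). The first principal component of the members held 45.9% of their variance and ran from -61.9 to -32.2 in the lower class and from 32.4 to 58.9 in the higher class. Only 39.4% of members were higher in the higher class, and the noncoding RNA Bc1 took 32.9% to 59.6% of a library's summed FPKM in the lower class and 6.01% to 19.2% in the higher. Because the classes are split unevenly between the groups, the medians of the groups of genes below are given beside those with the class as a term, those within each class, or both. A difference within a class sets 4 libraries against 2 and is given without a standard error. The signal also varied within the lower class, at 1.66 and 1.75 FPKM in naive 2 and 4 against 2.78 and 2.44 FPKM in novice 1 and 2. Depth is not part of the deposited values. By an estimate from the steps between low values, 1 fragment on a transcript of 1 kb was worth 0.822 to 1.87 FPKM in naive. It was worth 0.704 to 1.68 FPKM in novice. By class the estimate was 0.704 to 1.1 FPKM in the lower and 1.19 to 1.87 FPKM in the higher, without overlap. Within the lower class it was 0.726 and 0.704 FPKM in novice 1 and 2, against 0.822 to 1.1 FPKM in naive 1 to 4. The class term therefore also divides the libraries by this step. Xist and Ddx3y went against the labelled sex in novice 1 and novice 3.

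No gene passed the test between novice and naive. At an adjusted p under 0.05 (limma, adjusted over all 20850 genes tested by the method of Benjamini and Hochberg), 0 genes were called, which is 0% of those tested, and the smallest adjusted p of any member was 0.871. With the class of silent gene signal as a term, 0 genes were called as well, and the smallest was 0.733. At an unadjusted p under 0.05, 135 members (1.38%) were higher in novice and 300 (3.08%) were lower. Over all genes tested the balance went the other way, with 574 higher (2.75%) and 386 lower (1.85%). With the class as a term, 382 members (3.92%) were higher and 312 (3.2%) lower, against 654 (3.14%) and 582 (2.79%) of all genes tested. Factors from the trimmed mean of M values, another scaling between libraries, gave 181 members higher and 176 lower in place of 135 and 300. The counts also rest on single libraries, at 487 higher and 631 lower without naive 6, 479 and 553 without naive 5, and 68 and 156 without naive 2.

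Most members were slightly lower in novice. The median log2 fold change on the scale of log2(FPKM + 1), novice minus naive, was -0.08 over the members, with 5801 lower and 3948 higher, 0.07 over all genes tested, and -0.18 over the 2202 members of at least 20 FPKM in 6 libraries. With the class as a term the 3 medians were -0.00, -0.01 and 0.03. The differences within the lower class and within the higher class had the same sign in 47.4% of members. The median standard error of a member was 0.287 on the log2 scale, in the fit without the class as a term. In that fit the 95% interval lay within a 2-fold change of FPKM + 1 either way for 5962 members (61.2%). For members of low level that range takes in larger changes of FPKM itself. For the other members the interval reached beyond the range on at least 1 side.

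**Figure D1:**
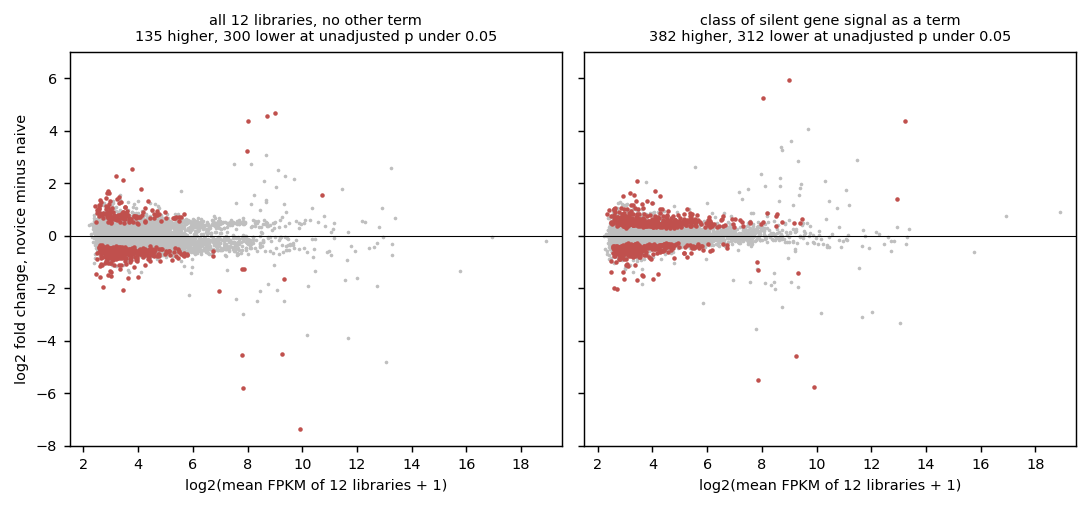
Log2 fold change, novice minus naive, of each of the 9749 members against its mean level as log2(mean FPKM + 1) over the 12 libraries, without (left) and with (right) the class of silent gene signal as a term. Red points are the members at an unadjusted p under 0.05, 135 higher and 300 lower on the left and 382 higher and 312 lower on the right, and none passed at an adjusted p under 0.05.

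Few genes separated the groups without overlap. All 6 novice libraries lay below all 6 naive libraries for 11 members (0.113%), against 14 of all genes tested (0.0671%). They lay above for 1 member (0.0103%), against 13 of all genes tested (0.0624%). The 11 were Mrps16, Raly, Jtb, Dnpep, Lrig1, Kdelr1, Rbms1, Hist1h1e, Mtmr10, Trove2 and Nrep, and the 1 was Chic2. Of the 300 members lower at an unadjusted p under 0.05, 294 were lower within both classes, and of the 135 higher, 116 were higher within both. These members were chosen by the difference over the same libraries, which favours a shared sign, so the counts are no separate support. For genes without overlap the sign within each class is fixed. Both fits gave an unadjusted p under 0.05 for 206 of the lower and 68 of the higher members.

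With predicted loci and small RNAs left out, the smallest p among the lower members was that of Mrps16, a protein of the small subunit of the mitochondrial ribosome. It ran from 13.3 FPKM through a median of 19.2 to 45.0 FPKM in naive, and from 3.65 through 6.24 to 12.4 FPKM in novice. The groups did not overlap, naive 6 was the highest library and novice 2 the highest of the novice libraries. The mean was 23.2 ± 12.0 FPKM in naive and 6.91 ± 3.10 FPKM in novice, and the log2 fold change was -1.57 (standard error 0.32, unadjusted p = 0.000196). It was -1.64 with the class as a term, -1.08 within the lower class and -2.21 within the higher.

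Several of the lower members handle RNA, membrane proteins or signals at the cell surface. Raly, an RNA-binding protein of the hnRNP family, ran from 12.6 through 20 to 23.4 FPKM in naive and from 7.28 through 8.46 to 12.4 FPKM in novice. Raly had a log2 fold change of -0.93 (standard error 0.21), and -0.80 and -0.92 within the lower and the higher class. The gap between the groups was narrow, from 12.4 to 12.6 FPKM. Lrig1, which restrains signalling by receptors of the epidermal growth factor family, ran from 9.52 through 12.5 to 16.0 FPKM in naive and from 5.29 through 7.28 to 8.42 FPKM in novice. Lrig1 was lower by a log2 fold change of -0.73 (standard error 0.20), and -0.69 and -0.58 within the classes. Kdelr1, which returns proteins to the endoplasmic reticulum, had medians of 13.8 FPKM in naive and 7.58 FPKM in novice, a log2 fold change of -0.85 (standard error 0.24). Jtb, a small membrane protein, had medians of 18.6 and 9.91 FPKM, and a log2 fold change of -0.98. These 5 genes, Mrps16 among them, were lower within both classes, which follows from the absence of overlap between their groups.

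Enzymes and a regulator of the cytoskeleton were among the other lower members. Dnpep, an aminopeptidase, ran from 6.86 through 9.71 to 12.4 FPKM in naive and from 3.04 through 5.54 to 6.66 FPKM in novice. Npepl1, another aminopeptidase, had medians of 7.88 and 4.01 FPKM, and the mitochondrial Nudix hydrolase Nudt8 had 7.08 and 1.91 FPKM. The groups overlapped for Npepl1 and Nudt8, and 1 novice library was listed at 0 for Nudt8. Tmem134 had medians of 12.8 and 5.26 FPKM, with novice 1 at 10.9 FPKM inside the naive range. Cdc42ep1, an effector of the small GTPase Cdc42 in actin assembly, had medians of 7.93 and 4.64 FPKM. Among these 5 genes, log2 fold changes ran from -1.48 for Nudt8 through -1.28 for Tmem134, -0.98 for Npepl1 and -0.83 for Dnpep to -0.66 for Cdc42ep1. Many of these transcripts rest on few fragments. In the median naive and novice library the step of the values gives about 5.81 and 1.07 fragments for Nudt8, 9.35 and 3.92 for Dnpep, and 50.0 and 14.1 for Mrps16. These counts also depend on the transcript length assumed, such as 2570 bases for Mrps16, which may differ from that behind the FPKM.

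Chic2 was the only member whose novice libraries all lay above the naive ones. It ran from 4.21 through 6.09 to 7.49 FPKM in naive and from 8.24 through 10 to 13.2 FPKM in novice. The log2 fold change was 0.67 (standard error 0.19, unadjusted p = 0.003), and 0.61 and 0.57 within the lower and the higher class. Supt7l, a subunit of a histone acetyltransferase complex, had medians of 6.76 and 11.8 FPKM (log2 fold change 0.64), and Nanp, an enzyme of sialic acid synthesis, 4.48 and 8.17 FPKM (0.83). For Supt7l the difference was 0.71 within the lower class and 0.23 within the higher.

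Ghrl, which encodes the stomach hormone ghrelin, ran from 0 through 3.49 to 8.48 FPKM in naive and from 5.82 through 11.0 to 39.6 FPKM in novice, a log2 fold change of 2.12 (standard error 0.59). Ffar2, a receptor for short-chain fatty acids, had medians of 3.95 and 8.55 FPKM, Aqp3, a water and glycerol channel of epithelia, 2.33 and 6.23 FPKM, and Ocm, a calcium-binding protein related to parvalbumin, 3.56 and 12.0 FPKM. The secretoglobin Scgb1b3, the hair keratin-associated Krtap20-2, the interferon-induced Ifitm1, the ribosomal protein paralogue Rps4l and the zinc finger gene Zfp345 complete the set, with log2 fold changes of 1.76, 1.63, 1.48, 0.77 and 0.77. The part of the silent gene signal in these differences was not tested, and its values stand beside them. All 12 of the higher genes were higher in the higher class, by 0.21 for Rps4l to 2.06 for Krtap20-2 on the log2 scale. Krtap20-2 is itself 1 of the 88 members from the silent families. Their log2 fold changes with the class as a term ran from 0.47 for Supt7l to 2.06 for Ghrl. Scgb1b3 differed by 0.03 within the lower class and by 3.38 within the higher. Fragments were few, at about 1.75 and 4.99 for Ghrl and 1.22 and 3.46 for Ocm in the median naive and novice library. No source used here says how reads that match several copies of a gene were assigned, so Rps4l, Scgb1b3 and Zfp345, which have near copies, are uncertain.

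**Figure D2:**
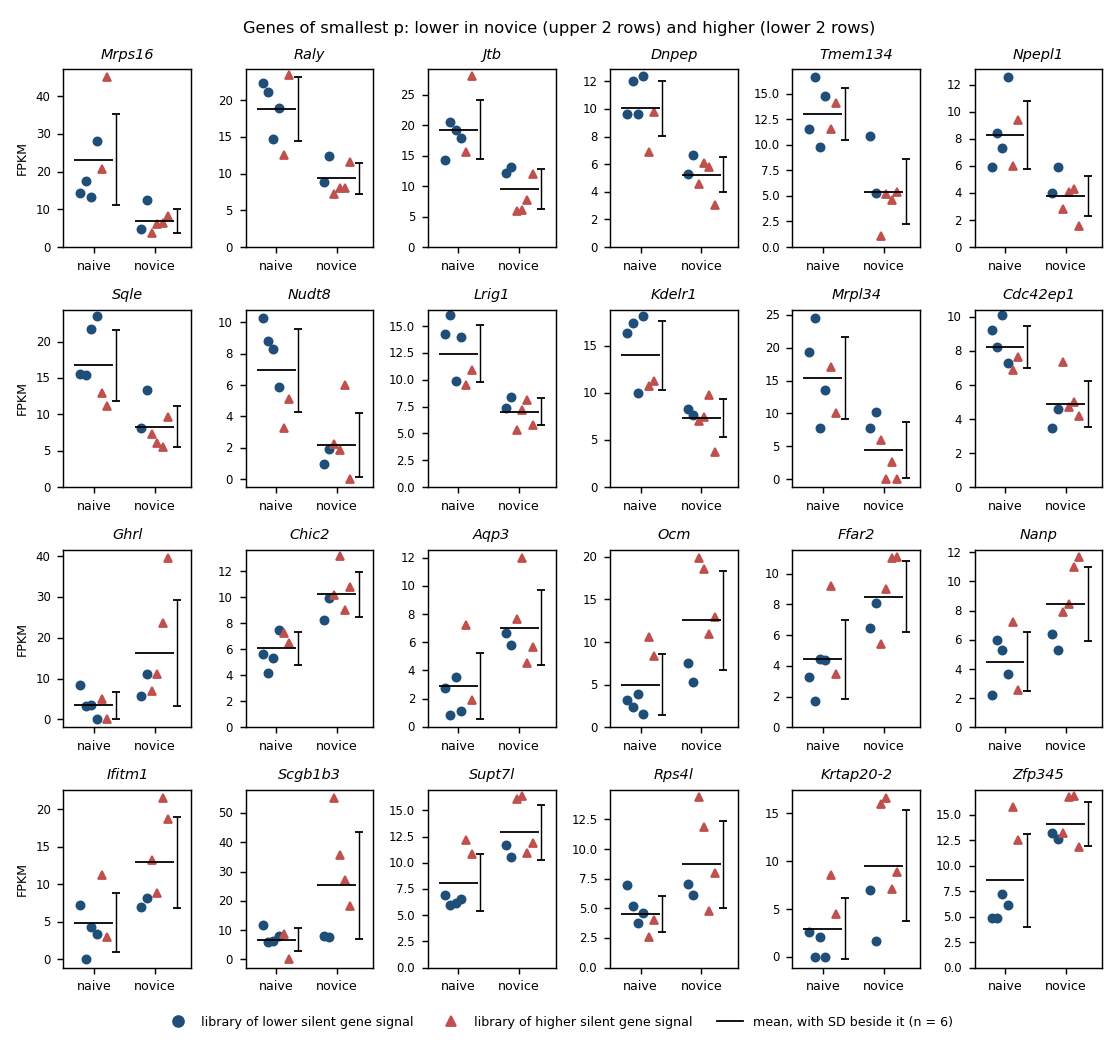
FPKM of the 24 genes of smallest p, predicted loci and small RNAs left out, in each of the 6 naive and 6 novice libraries. The 12 genes lower in novice are above and the 12 higher are below. Circles are libraries of lower and triangles of higher silent gene signal, lines are means and bars SD. Mrps16 at 13.3 to 45.0 FPKM in naive against 3.65 to 12.4 in novice does not overlap, while for Scgb1b3 the 4 highest novice libraries, 18.2 to 55.1 FPKM, are all of the higher class.

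The gene groups that follow were described by their members, and in each of them 0 members passed at an adjusted p under 0.05. Counts "at p under 0.05" are unadjusted and are to be read beside the 1.38% higher and 3.08% lower among all members. Those from the fit with the class as a term are to be read beside 3.92% higher and 3.2% lower. The groups share some genes and are not independent. In bulk libraries, fewer cells of a type and less RNA per cell cannot be told apart.

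Genes by which astrocytes are recognised had the lowest median of the functional groups without the class term. Of 30 genes, 29 were lower in novice, 4 of them at p under 0.05, with a median log2 fold change of -0.55. With the class as a term 27 were lower and the median was -0.17. It was -0.37 within the lower class and -0.02 within the higher, and the median difference between the higher and the lower class was -1.03. Among naive libraries the mean log2(FPKM + 1) of the 30 genes was highest in naive 2 (7.50) and lowest in naive 6 (5.79). Within the lower class it was 7.50 and 7.37 in naive 2 and 4, whose silent gene signal was lowest. It was 7.05 and 6.70 in naive 1 and 3, and 6.68 and 6.93 in novice 1 and 2.

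Slc1a2, the main glutamate transporter of astrocytes, ran from 548 through 1500 to 2340 FPKM in naive and from 518 through 677 to 1530 FPKM in novice. Its log2 fold change was -0.61 (95% interval -1.67 to 0.45), and -0.14 with the class as a term. Slc1a3, the other glutamate transporter, had medians of 485 and 228 FPKM, and Glul, which converts glutamate to glutamine, 923 and 427 FPKM. In all of these the ranges of the groups overlapped. Gja1, the main gap junction protein of astrocytes, had medians of 215 and 133 FPKM, and Aldh1l1, an enzyme of folate metabolism, 41.8 and 29.4 FPKM. Aldh1l1 had a log2 fold change of -0.31 without the class term and -0.02 with it, and its difference was -0.54 within the lower class and 0.51 within the higher. Sparcl1, a secreted synaptogenic protein, had medians of 1720 and 863 FPKM, and Apoe, the main lipid carrier of the brain, 3890 and 2400 FPKM. Sparcl1 and Apoe were at -0.06 and -0.03 with the class as a term, and Apoe and Aldh1l1 were at or just above 0 with the silent gene signal itself as a covariate.

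For other identity genes the difference stayed further from 0 with the class as a term. Slc7a10, the carrier that exchanges D-serine, ran from 36.6 through 55.1 to 71.9 FPKM in naive and from 28.8 through 35.0 to 39.4 FPKM in novice. Its log2 fold change was -0.63 (unadjusted p = 0.012) and -0.49 (0.00457) with the class as a term, with -0.74 and -0.24 within the classes. Ntsr2, a neurotensin receptor of astrocytes, had medians of 117 and 73.7 FPKM, and its differences were -0.37 and -0.39 within the classes. Gfap, the intermediate filament that marks reactive astrocytes, ran from 9.09 through 16.7 to 35.3 FPKM in naive and from 8.12 through 10.6 to 12.9 FPKM in novice. For Gfap the log2 fold change was -0.71 (unadjusted p = 0.0271), and its difference was -0.86 within the lower class and -0.13 within the higher.

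**Figure D3:**
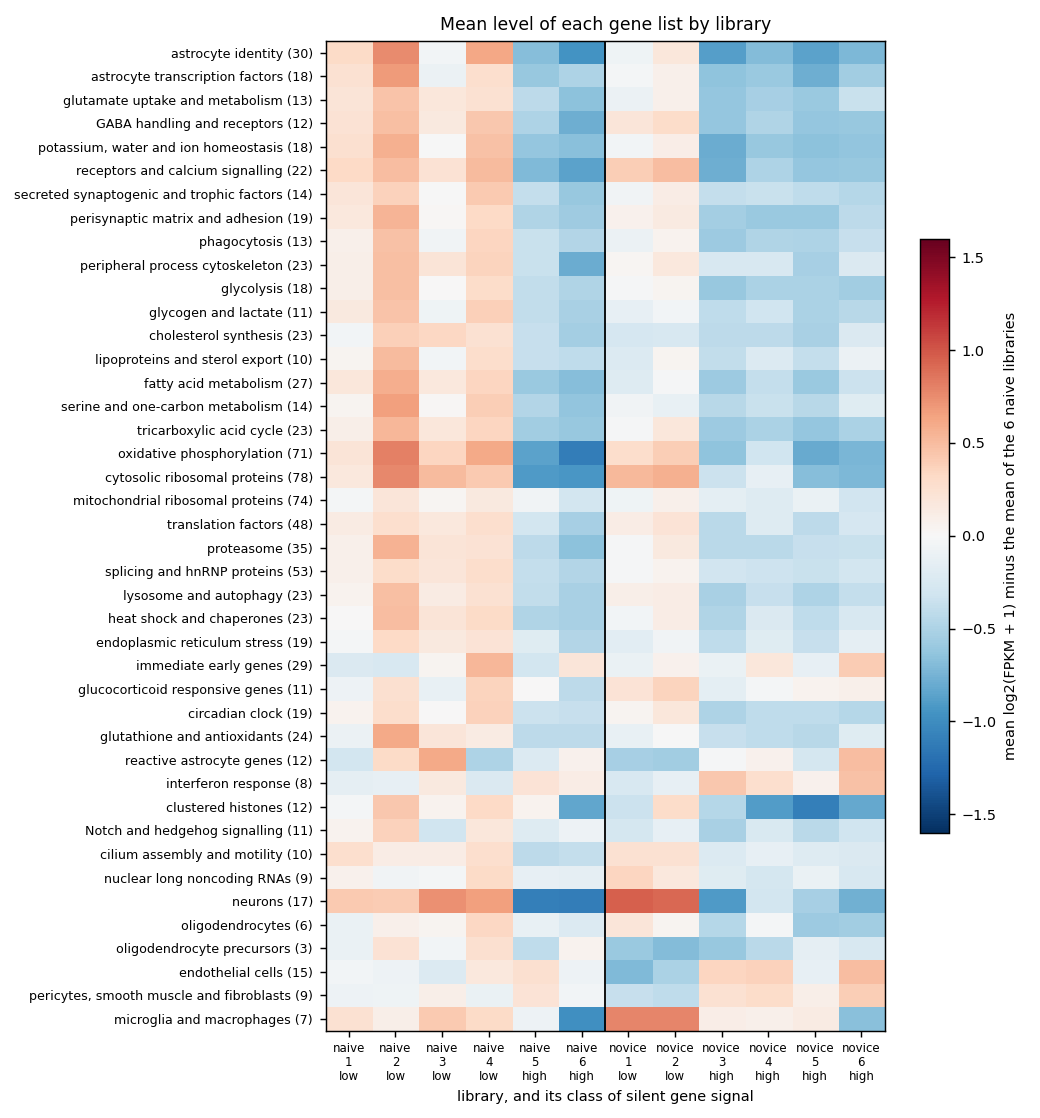
Mean log2(FPKM + 1) of each gene group in each library minus its mean over the 6 naive libraries, with the number of members in brackets and the class of silent gene signal under each library; red is higher and blue lower. The mean of the astrocyte identity genes is 5.79 to 6.07 in the 6 libraries of the higher class and 6.68 to 7.50 in the 6 of the lower class.

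Most transcription factors of the astrocyte lineage, and most genes of the Notch and hedgehog pathways that act on them, had lower values in novice, and 0 passed the test. Of 18 transcription factors, 17 were lower, 3 at p under 0.05, with a median of -0.48, and -0.12 with the class as a term. Of 11 Notch and hedgehog genes, 10 were lower, 3 at p under 0.05, with a median of -0.27. The median of that group was -0.21 with the class as a term, and -0.17 and -0.27 within the lower and the higher class. Its median difference between the higher and the lower class was -0.21.

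Hes5, a repressor switched on by Notch, ran from 6.46 through 12.2 to 36.5 FPKM in naive and from 3.67 through 6.33 to 7.57 FPKM in novice. Naive 2 was far above the others, and naive 3 and 5 lay within the novice range. The log2 fold change was -0.98 (standard error 0.34, unadjusted p = 0.0122), with -0.86 and -0.75 within the classes. Hes5 is in both groups. Notch2, a Notch receptor, had medians of 9.82 and 7.6 FPKM, and a log2 fold change of -0.43 both without and with the class as a term. Hey1, another Notch target, had medians of 11.4 and 7.30 FPKM, and its difference of -0.06 within the lower class contrasts with -0.82 within the higher. Gli3, a hedgehog effector, had medians of 8.59 and 6.25 FPKM.

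The promoter of Hes5 is shown because Hes5 is the target by which Notch activity is most often read. Notch acts through the DNA-binding protein Rbpj, whose core motif is TGGGAA. The 250 bases before the start of Hes5 (RefSeq, build GRCm38, chr4:154960673-154960922, forward strand), with matches to the motif on either strand in capitals (TGGGAA, or TTCCCA for the reverse strand), read 5′ to 3′:
Hes5: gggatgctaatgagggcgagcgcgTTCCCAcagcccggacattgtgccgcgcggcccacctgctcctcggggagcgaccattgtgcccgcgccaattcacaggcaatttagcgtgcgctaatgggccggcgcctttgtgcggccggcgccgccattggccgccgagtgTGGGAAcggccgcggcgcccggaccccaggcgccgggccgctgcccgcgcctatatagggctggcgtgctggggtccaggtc
The window holds 2 matches. The motif occurs on either strand in 21.6% of 32851 promoter windows of the same length, and a match is a description of letters, not a bound site.

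Among the other lineage factors, Pax6 had medians of 12.4 FPKM in naive and 6.28 FPKM in novice and a log2 fold change of -0.62. Rfx4, a factor of radial glia and astrocytes, had medians of 11.1 and 7.10 FPKM and the same difference of -0.37 within each class. Sox9, which directs astrocyte fate, had medians of 54.2 and 29.7 FPKM. Its log2 fold change was -0.60 (unadjusted p = 0.0522), and -0.32 with the class as a term.

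Most genes that take up neurotransmitters and ions had lower values in novice, and 0 passed the test. All 13 glutamate genes that were members were lower (median -0.38, and -0.13 with the class as a term), as were all 18 genes of potassium, water and ion homeostasis (-0.47 and -0.16). Of 12 GABA genes, 9 were lower (-0.45 and -0.08). Only 1 glutamate gene, 1 GABA gene and 0 ion genes reached p under 0.05. Within the higher class the 3 medians were 0.03, -0.07 and -0.07, against -0.28, -0.38 and -0.25 within the lower for glutamate, ion and GABA genes.

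Slc6a11, the GABA transporter GAT3 of astrocytes, ran from 35.8 through 70.5 to 99.2 FPKM in naive and from 27.7 through 34.3 to 62.7 FPKM in novice. Slc6a11 had a log2 fold change of -0.72 (unadjusted p = 0.0404), and -0.38 (0.0254) with the class as a term. Slc1a4, a carrier of neutral amino acids, had medians of 18.3 and 12.5 FPKM. The potassium channel Kcnj10 (Kir4.1) had medians of 73.2 and 33.2 FPKM, and the water channel Aqp4 62.7 and 33.3 FPKM. Kcnj10 was at -0.22 and Aqp4 at -0.26 with the class as a term, and neither reached an unadjusted p of 0.05 in either fit. Hepacam, an adhesion protein of astrocyte junctions, had medians of 81.8 and 40.7 FPKM and a log2 fold change of -0.64, and -0.34 with the class as a term.

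Receptors and calcium signalling genes had medians on either side of 0 in the 2 fits. Of 22 genes, 20 were lower, with a median of -0.29, and with the class as a term 8 were lower and the median was 0.05. At p under 0.05, 0 were higher and 1 lower without the term, and 5 were higher and 1 lower with it. Grm3, a metabotropic glutamate receptor, had medians of 69.2 and 28.6 FPKM. It was among the 8 lower with the term, with log2 fold changes of -0.71 without it and -0.26 with it. The genes of the cytoskeleton of fine processes likewise had medians of -0.20 and 0.07, with 18 and 10 of 23 lower in the 2 fits. Ezr, which links actin to the membrane of those processes, was lower in both, at -0.61 and -0.29.

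Among secreted factors, 11 of 14 were lower, 2 at p under 0.05, and 1 was higher at p under 0.05 (median -0.43, and -0.16 with the class as a term). Wnt7b, a ligand that acts on vessels and synapses, ran from 7.23 through 10.2 to 14.6 FPKM in naive and from 3.08 through 6.30 to 7.97 FPKM in novice. Wnt7b had a log2 fold change of -0.69 (unadjusted p = 0.0109), with -0.59 and -0.53 within the classes. Its paralogue Wnt7a had medians of 7.96 and 5.12 FPKM, with -0.47 and -0.53 within the classes. Both Wnt7 genes were named by their p over the same libraries, which favours a shared sign within the classes, so these values are no separate support. Fgf2, a growth factor, had medians of 4.35 and 7.56 FPKM and a log2 fold change of 1.2, with 0.15 within the lower class and 2.19 within the higher and about 2.13 and 3.88 fragments. Vegfa, the angiogenic factor, had medians of 50.7 and 33.7 FPKM.

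Matrix and adhesion genes (17 of 19 lower, median -0.37, and -0.12 with the class as a term) and phagocytosis genes (12 of 13 lower, -0.39 and -0.17) were likewise mostly at lower values. Megf10, a receptor by which astrocytes engulf synapses, ran from 8.96 through 11.9 to 16.4 FPKM in naive and from 5.26 through 7.93 to 11.4 FPKM in novice. Its differences were -0.36 and -0.45 within the classes. Mfge8, which bridges engulfing cells to exposed lipid, had medians of 213 and 120 FPKM, and the proteoglycan Ncan 65.2 and 32.8 FPKM.

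Genes of energy metabolism had medians below 0 in the fit without the class. The median was -0.41 for glycolysis (15 of 18 lower), -0.27 for glycogen and lactate (11 of 11), -0.37 for the tricarboxylic acid cycle (21 of 23) and -0.31 for oxidative phosphorylation (63 of 71). With the class as a term the medians were -0.16, -0.10, -0.08 and 0.06, and 28 of the 71 oxidative phosphorylation genes were lower. The nuclear genes of oxidative phosphorylation had a median difference of -1.15 between the higher and the lower class, and one of 0.27 between novice and naive within the higher class. Pfkm and Pfkp, both subunits of the rate-limiting enzyme of glycolysis, had medians of 56.7 and 22.7 FPKM and of 18 and 11.7 FPKM. The differences were -0.35 and -0.59 for Pfkm and -0.26 and -0.59 for Pfkp within the lower and the higher class. Pygm, a glycogen phosphorylase, had medians of 22.9 and 12.8 FPKM. In mitochondria, Sdhd had medians of 20.3 and 10.9 FPKM, Suclg1 36.7 and 25.2 FPKM, and Uqcr10 129 and 72.3 FPKM.

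Cholesterol synthesis held 4 members at p under 0.05 in both fits, all lower. Of its 23 members 21 were lower, with a median of -0.32, and with the class as a term 19 were lower and the median was -0.23. Within the lower class the median was -0.51, and within the higher class 0.05. The 4 members, chosen by their p over the same libraries, were lower within both classes. Sqle, squalene epoxidase, a rate-limiting enzyme of the pathway, ran from 11.1 through 15.5 to 23.5 FPKM in naive and from 5.52 through 7.74 to 13.3 FPKM in novice. Only novice 2, at 13.3 FPKM, lay inside the naive range. Sqle had a log2 fold change of -0.93 (standard error 0.25, unadjusted p = 0.00186), and its differences were -0.78 and -0.71 within the classes. Fdft1, squalene synthase, had medians of 30 and 18.1 FPKM, Msmo1, a methyl sterol oxidase, 69.0 and 38.7 FPKM, and Dhcr7, which makes the last step to cholesterol, 9.13 and 5.72 FPKM. Their differences within the lower and the higher class were -0.58 and -0.30 for Fdft1, -0.51 and -0.30 for Msmo1, and -0.63 and -0.38 for Dhcr7.

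Fatty acid genes (26 of 27 lower, median -0.39) were at -0.14 with the class as a term, -0.43 within the lower class and 0.09 within the higher. Fads2, a desaturase of long-chain fatty acids, had medians of 67.7 and 31.1 FPKM, and was at -0.40 (unadjusted p = 0.0202) with the class as a term. Serine and one-carbon genes (13 of 14 lower, median -0.30, and -0.07 with the class as a term) had a median of -0.44 within the lower class and of 0.28 within the higher. Phgdh, the first enzyme of serine synthesis, had medians of 37.2 and 22.8 FPKM, with -0.43 and -0.33 within the classes. Glutathione and antioxidant genes were at -0.27, and at -0.16 with the class as a term.

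**Figure D4:**
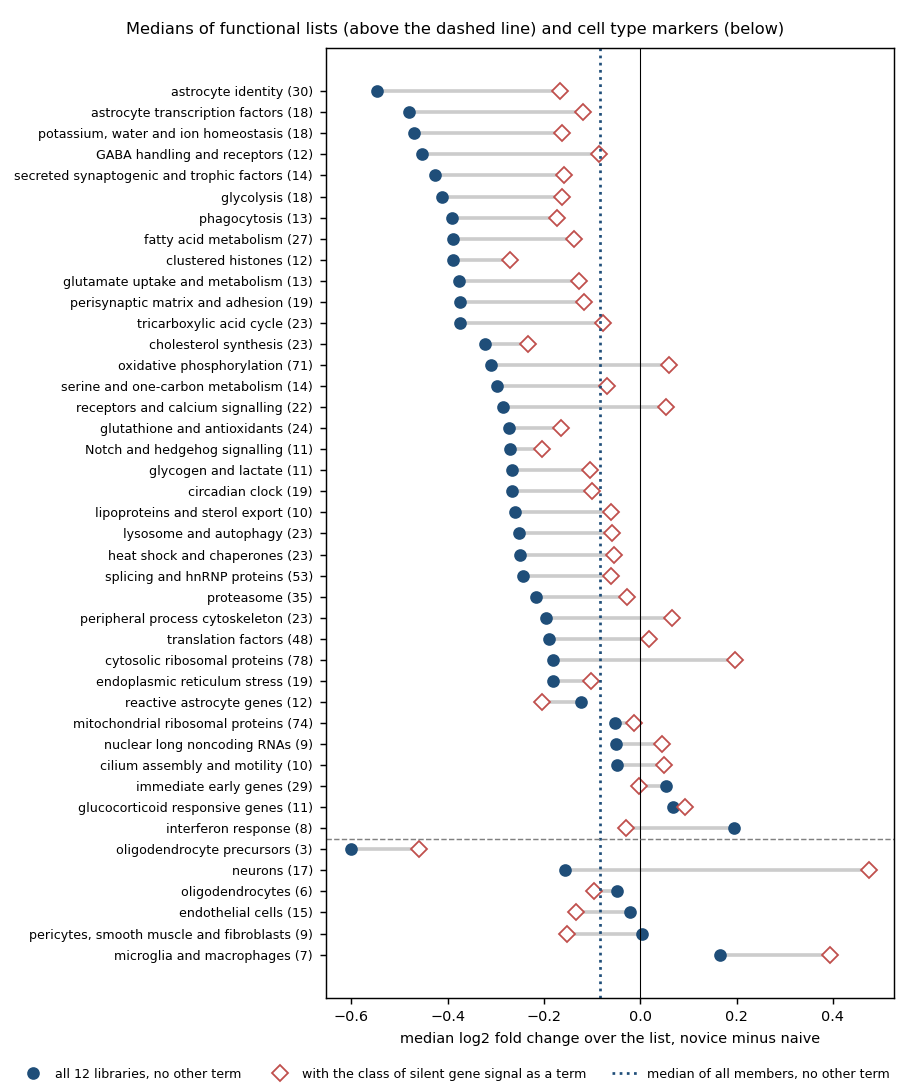
Median log2 fold change, novice minus naive, of each gene group with at least 3 members (number in brackets), without (filled circles) and with (open diamonds) the class of silent gene signal as a term; the dotted line is the median of all members, -0.08. The median of astrocyte identity genes is -0.55 without and -0.17 with the term, that of neuronal markers -0.16 and 0.47, and that of cytosolic ribosomal proteins -0.18 and 0.20.

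Genes of protein synthesis are given by compartment. Cytosolic ribosomal proteins were lower without the class as a term (68 of 78, median -0.18) and had a median of 0.20 with it (11 of 78 lower). At p under 0.05, 1 was higher and 0 lower without the term, and 9 were higher and 0 lower with it. Their median difference between the higher and the lower class was -1.13. Mitochondrial ribosomal proteins had medians near 0 in both fits, at -0.05 and -0.01, with 47 of 74 lower. Of these 74, 5 were lower and 0 higher at p under 0.05, with Mrps16 first. Mrpl34, of the large subunit, ran from 7.80 through 15.3 to 24.6 FPKM in naive and from 0 through 4.31 to 10.2 FPKM in novice. Mrpl34 had a log2 fold change of -2.06 (standard error 0.58), on about 8.10 and 1.63 fragments. Mrpl55 had medians of 11.8 and 5.30 FPKM and Mrpl32 10.1 and 5.05 FPKM, and both were lower within either class. Translation factors had medians of -0.19 and 0.02. Of their named members, Eif4a3, a helicase of the exon junction complex, had medians of 18.4 and 11.0 FPKM and differences of -0.53 and -0.90 within the classes, while Eif2b1 had 5.55 and 11.0 FPKM and was higher by 0.34 and 0.64 within them.

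Proteasome genes were lower in 32 of 35 (median -0.22, and -0.03 with the class as a term), 4 at p under 0.05. Psmd12, of the regulatory particle, ran from 13.6 through 15.4 to 18.7 FPKM in naive and from 9.70 through 10.9 to 13.9 FPKM in novice, with -0.38 and -0.44 within the classes. Splicing and hnRNP genes (44 of 53 lower, -0.24 and -0.06) included Raly. Chaperones (20 of 23 lower, -0.25 and -0.05) and lysosomal genes (21 of 23 lower, -0.25 and -0.06) had 0 members at p under 0.05. The genes of the endoplasmic reticulum stress response had 17 of 19 lower (-0.18 and -0.10) and 1 at p under 0.05, Creld2, with medians of 7.55 and 4.11 FPKM.

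Clustered histone genes were lower in 11 of the 12 that were members of 67 examined, with a median of -0.39, and -0.27 with the class as a term. Hist1h1e, a linker histone, ran from 28.2 through 35.1 to 42.0 FPKM in naive and from 6.06 through 19.2 to 26.5 FPKM in novice. The groups did not overlap, and the differences were -0.55 within the lower class and -1.14 within the higher. Hist4h4, a core histone gene, had medians of 9.40 and 4.02 FPKM. Histone genes are near copies of one another, and their values are uncertain for that reason.

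Genes that respond to activity and to stress hormones had medians near 0. With a filter of 20 FPKM in 6 libraries, which left fewer genes of each group, the medians were -0.04 for immediate early genes and -0.17 for glucocorticoid responsive genes. Of 29 immediate early genes, 16 were higher and 13 lower, with medians of 0.05 and -0.00 without and with the class as a term. At p under 0.05, 1 was higher and 1 lower without the term, and 4 were higher and 1 lower with it. Ctgf, a matrix-associated growth factor gene, had medians of 3.84 and 9.25 FPKM and a log2 fold change of 0.91 (unadjusted p = 0.0173), with 0.20 within the lower class and 1.19 within the higher. Ier5 had 7.68 and 4.45 FPKM, with -0.44 and -0.74 within the classes. Sik1, a kinase induced by cyclic AMP, had 6.04 and 8.56 FPKM, with 0.49 and 0.53 within the classes, and did not reach an unadjusted p of 0.05 without the class as a term (0.0743). Fos and Arc, named because they are the most used of these genes, had medians of 20.8 FPKM in naive and 20.4 FPKM in novice, and of 10.3 and 9.47 FPKM.

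Of 11 glucocorticoid responsive genes, 7 were higher, with medians of 0.07 and 0.09 without and with the class as a term. Tsc22d3, also called GILZ, a direct target of the glucocorticoid receptor, ran from 20.8 through 34.2 to 60.9 FPKM in naive and from 46.1 through 51.5 to 59.5 FPKM in novice. Novice libraries lay in a narrow band in the upper part of the naive range. The log2 fold change was 0.57 (unadjusted p = 0.0327), and 0.58 and 0.59 within the lower and the higher class. Clock genes were lower in 16 of 19 (-0.27 and -0.10). Dbp, a clock output factor, had medians of 28.4 and 16.6 FPKM, with -0.34 and -0.40 within the classes, and Bhlhe40, a clock repressor, 27.7 and 17.0 FPKM. No source used here gives the time of day at which tissue was taken.

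Of 27 reactive astrocyte genes 12 were members, with a median of -0.12, and of -0.54 within the lower and 0.14 within the higher class. The median turned to 0.02 under quantile normalization. Of 17 interferon response genes 8 were members, with medians of 0.19 and -0.03. Isg15 had medians of 61.4 and 93.5 FPKM, with 0.43 within the lower class and -0.15 within the higher.

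The median difference of neuronal markers between the higher and the lower class was -1.46. Of 17, 12 were lower in novice without the class as a term (median -0.16), and 1 was lower with it (median 0.47), where 7 were higher at p under 0.05. Within the lower and the higher class the medians were 0.38 and 0.44. Slc17a7 and Camk2a, which mark excitatory neurons, were chosen after their values were seen. Slc17a7 ran from 3.26 through 47.3 to 62.9 FPKM in naive and from 11.9 through 15.8 to 88.7 FPKM in novice. In the lower class its naive libraries were at 46.9 to 62.9 FPKM and its novice libraries at 81.8 and 88.7 FPKM. In the higher class they were at 3.26 and 7.24 FPKM and at 11.9 to 18.9 FPKM. The log2 fold change of Slc17a7 was 0.07 without the class as a term and 1.01 (standard error 0.20, unadjusted p = 0.000202) with it, and that of Camk2a was -0.17 and 0.86. Of the markers of inhibitory neurons, Gad1 had medians of 6.19 and 4.77 FPKM and Gad2 of 7.69 and 10.4 FPKM, with log2 fold changes of -0.18 and 0.33. The part of neuronal RNA in the differences of the astrocyte genes was not tested.

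Microglial markers were higher in 5 of 7 members (median 0.17), and with the class as a term 0 of the 7 were lower (0.39). Cx3cr1, the fractalkine receptor of microglia, ran from 11.4 through 22.3 to 33.5 FPKM in naive and from 26.4 through 33.2 to 37.0 FPKM in novice. Cx3cr1 had a log2 fold change of 0.55 (unadjusted p = 0.0397), with 0.69 within the lower class and 0.10 within the higher. Endothelial markers had a median of -0.02 over 15 genes, and of -0.54 within the lower class and 0.17 within the higher. Kdr, the main receptor for Vegfa, had medians of 11.7 and 12.1 FPKM, and differed by -1.02 within the lower class and by -0.07 within the higher. Pericyte and fibroblast markers, with a median of 0.00 over 9 genes, were split alike, at -0.42 and 0.06.

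Of 7 markers of oligodendrocyte precursors 3 were members, and all were lower, with a median of -0.60, and -0.46 with the class as a term. Olig2, a lineage factor, ran from 6.34 through 12.3 to 14.7 FPKM in naive and from 5.31 through 6.46 to 9.68 FPKM in novice. Olig2 had a log2 fold change of -0.63 (unadjusted p = 0.0117), with -0.81 and -0.40 within the classes. Olig1 had medians of 15.7 and 9.87 FPKM. Markers of mature oligodendrocytes had a median of -0.05 over 6 genes, and of -0.10 with the class as a term. Mbp, the myelin basic protein gene, ran from 10.7 to 159 FPKM in naive and from 5.93 to 93.4 FPKM in novice.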

How the data were processed

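Total RNA was recovered from M1 astrocytes after proteinase K digestion, made into libraries with a SMARTer stranded kit and sequenced on a HiSeq 2000, per the labels' protocols. The values were deposited as FPKM, and per the submitters' processing notes the authors used TopHat and Cufflinks with build mm9. No source used here gives versions, annotation or any further scaling. The upper quartile over all genes was 8.25 to 8.81 FPKM in the 12 libraries, while their summed FPKM ran from 6.699e+05 to 2.265e+06. The values may thus have been scaled between libraries beyond the total of fragments, which was not tested.

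Of 23951 entries, 27 named as dates were dropped. The 20850 genes that reached 1 FPKM in 6 or more of the 12 libraries entered the test, on log2(FPKM + 1), which understates the change of low genes, with limma 3.58.1 in R 4.3.3 (lmFit, and eBayes with trend, two-sided, threshold 0.05). Single values were compared by exact permutation. Class values have a boundary of 4 FPKM, chosen after the values were seen. The fit was tested on simulated data.

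Named genes were the 12 of smallest p in each direction without predicted loci and small RNAs, up to 4 per group by p, non-overlapping genes and 10 astrocyte genes, with exceptions stated. Members and gene groups were chosen with earlier results of these data known. Medians of a group are over its members alone. Fragments are approximate, since read totals were not used. The length of a gene was the median over its annotated transcripts, for example 348 bases for Gja1. The length behind its FPKM is not known, so fragments may be too high or too low.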

Additional observations from a re-analysis of the deposited data

Results flagged for a closer look

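The values of single genes and of a few library properties were examined in 228 groups of 6 libraries. In 5 cases, all of single genes, 1 library stood apart from the other 5. Its gap to its neighbour took most of the range of the group (Dixon's test at the 95% level), which chance gives in about 1 of 20 groups. Hes5 was at 36.5 FPKM in naive 2 and at 14.5 FPKM in the next naive library. Srsf9, a splicing factor, was at 39.5 FPKM in naive 2 and at 20.6 FPKM in the next. Ffar2 was at 9.22 FPKM in naive 5, next to 4.47 FPKM, and Wnt7a at 4.45 FPKM in naive 5, under the 7.82 FPKM of the next naive library. Sdhd, a subunit of succinate dehydrogenase, was at 20.9 FPKM in novice 2 and at 12.8 FPKM in the next novice library.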

How the results depend on the processing

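In each of 32 other settings over both classes, 0 genes were called. Against 135 members higher and 300 lower at an unadjusted p under 0.05, the counts were 17 and 41 with a filter of 20 FPKM, where fewer genes were tested, 1498 and 2099 with array weights, 61 and 97 with the class of silent gene signal at a boundary of 2 FPKM, and 57 and 100 with age as a covariate. The lower count was 176 with the trimmed mean of M values. The higher count was 346 with the silent gene signal as a covariate, 382 with the class at 4 FPKM and 87 without novice 1 and 3. Leaving out each library in turn gave 68 to 487 higher and 156 to 631 lower. Each library but novice 1 moved at least 1 count by over 1.5 times, with 226 and 520 without novice 2, and 68 to 83 higher and 170 to 231 lower without naive 1, 3 or 4 or novice 3, 4, 5 or 6. The cause of these moves was not tested.

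The replicate numbers of the 2 groups were not shown to pair the libraries, since the correlation of libraries of the same number ran from -0.261 to 0.434. With the number as a block the counts were 302 and 516.

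Of 3486 recomputed values of single genes 24 reversed. Slc17a7 was at -0.01 with a pseudocount of 5, -0.10 without novice 1 and 3, -0.99 with array weights and -0.45 to 0.33 with 1 library left out (-0.26 without naive 5 or novice 1, -0.29 without novice 2). C1qb was at -0.19 with array weights and -0.08 to 0.66 with 1 library left out, lowest without naive 6. Aldh1l1 was at 0.03 with the signal as a covariate and at 0.03 with the class at 2 FPKM, and Apoe at 0.00 and 0.01. Camk2a was at 0.81 with the covariate, 0.41 and 0.86 with the class at 2 and 4 FPKM, 0.00 with age and -0.66 to 0.16 with 1 library left out (0.02, 0.04, 0.05 and 0.08 without naive 1 to 4, 0.03 and 0.02 without novice 5 and 6). Depth limits genes of few fragments, and the FPKM values set no interval of their own. Quantile normalization moved the median of all genes from 0.07 to -0.02.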

Other observations

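Genes of small RNAs had some of the widest spreads among the members, and a few fragments on a short gene give a high FPKM. Within the 6 libraries of lower silent gene signal alone 3 genes passed at an adjusted p under 0.05 (limma), and within the 6 of higher signal 4, and all 7 were small RNA genes, chosen here after their values were seen. Mir568, the gene of a microRNA hairpin, ran from 583 to 3780 FPKM in naive and from 0 to 975 FPKM in novice, where 4 libraries were listed at 0. Its log2 fold change was -7.36 over the 12 libraries (standard error 1.68, adjusted p = 0.871). Mir703 ran from 0 to 382 FPKM in naive and from 168 to 791 FPKM in novice, and Snord23, a small nucleolar RNA gene, from 0 to 636 FPKM and from 0 to 482 FPKM, with 1 naive and 5 novice libraries listed at 0.

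Kcnq1ot1, an imprinted nuclear RNA, had medians of 200 and 432 FPKM in naive and novice, with a log2 difference of 0.51 within the lower class and -0.28 within the higher. Malat1, an abundant nuclear RNA, had medians of 1100 and 726 FPKM, with -0.25 and -0.22. Hba-a2, a hemoglobin gene and the only member among 8 blood cell markers, ran from 0 to 21.3 FPKM in naive and from 8.16 to 29.4 FPKM in novice. Cilium genes had medians of -0.05 and 0.05 without and with the class as a term over 10 members.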
